A study of Homo sapiens with 12 samples.

Results

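The hematopoietic and myeloid transcription factors described here were 9 genes, SPI1, RUNX1, RUNX2, RUNX3, GFI1, MYB, MYC, ETV6 and IKZF1, chosen by gene symbol from the count matrix of U937 cells. Their symbols held 113 of the 197782 transcript rows in the matrix, which has 44786 symbols in all. Of these 113 rows, 37 had reads in any library and 76 had none.

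U937 is a human myelomonocytic leukemia cell line, with a PICALM-MLLT10 fusion, and is here a single line with no primary cells beside it. RNA-seq of ribosome-depleted total RNA was analysed in 12 libraries, 3 each of untreated cells and of cells treated with DAC (decitabine, 200 nM, renewed daily for 3 days), with ATRA (all-trans retinoic acid, 1 µM) or with DAC + ATRA. The labels give 72 h for the 3 treatments, 96 h for untreated cells, and medium with 20% FCS and 5 ng/ml GM-CSF for all groups. By these labels, treatment and harvest time cannot be told apart in any comparison that uses untreated cells, nor in the interaction. ATRA was dissolved in DMSO by the study's methods, and no group here is labelled as a DMSO control. The study's methods state another serum share and add ATRA together with the last dose of DAC, so the length of ATRA exposure is not settled. The series' design text calls the 3 libraries of a treatment technical triplicates, so p-values measure only the spread between these libraries.

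Blood cell identity is set by a small number of transcription factors that bind the same enhancers and promoters. SPI1 (PU.1, an ETS factor) opens and activates myeloid enhancers, RUNX1 acts with its partner CBFB at many of the same sites, and GFI1 represses genes through the LSD1 (KDM1A) and CoREST complex. MYB and MYC sustain proliferation of immature cells and are lowered in many settings where myeloid leukemia cells mature. DAC is built into DNA in place of cytosine and depletes the DNA methyltransferases, so that CpG methylation is lost as cells divide, and ATRA is the ligand of the retinoic acid receptors.

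The libraries held 8042435 to 10683593 counted reads, and 3 reads equalled 2.497 to 3.71 normalized read-counts. The matrix counts reads per transcript, and a transcript whose bases are shared with others received few: 2.02% of rows without a base of their own had at least 10 reads over the 12 libraries, against 33.5% of rows with such a base. Values below therefore rest mostly on stretches of a gene that belong to a single row, and not on the whole gene, though some rows with few or no bases of their own also had reads, such as ENST00000492782 of IKZF1 with 24. Levels are compared between treatments and never between genes. Of 10 myeloid markers, 5 (CD33, MPO, CD4, CSF1R and LYZ) passed 10 normalized read-counts in 3 libraries, while PTPRC and PRTN3 were listed at 0 in all 12, so a 0 in this matrix does not show that a gene is silent. The summed myeloid markers ran from 54178 to 60613 in untreated cells, from 25551 to 39182 with DAC, from 31451 to 43404 with ATRA and from 20644 to 21980 under DAC + ATRA. These sums follow MPO, which averaged 52578 in untreated cells and 15054 under DAC + ATRA, and other markers moved otherwise: LYZ averaged 164 in untreated cells, 806 with DAC, 179 with ATRA and 1097 under DAC + ATRA, and CSF1R 0.611, 6.09, 5.90 and 25.05. In the same order CD33 averaged 848, 837, 813 and 763, and CD4 averaged 3734, 4227, 4407 and 4477, which are smaller changes. Markers of other lineages also moved with DAC. The summed T cell markers, of which 1 of 4 (CD2) passed, ran from 2.76 to 10.2 in untreated cells and from 299 to 392 with DAC, and the summed B cell markers, of which 3 of 4 passed, from 485 to 557 and from 874 to 941. The summed megakaryocyte markers ran from 17.5 to 37.9 and from 397 to 531, and the summed fibroblast markers from 14.6 to 21.2 and from 211 to 274. Under DAC + ATRA the sums were 135 to 179 for T cell, 1654 to 1781 for B cell, 268 to 290 for megakaryocyte and 128 to 164 for fibroblast markers. The summed epithelial markers, of which 1 of 4 (KRT8) passed, ran from 0 to 0.91 in untreated cells, 8.65 to 25.9 with DAC and 12.4 to 23.2 under DAC + ATRA. The summed erythroid markers, of which 2 of 5 (EPOR and KLF1) passed and 3 were listed at 0, went the other way, from 115 to 134 in untreated cells, 106 to 109 with DAC and 85.3 to 94.9 under DAC + ATRA. Mitochondrial genes took 40.6 to 42.5% of the values in untreated cells, 37.0 to 40.4% with DAC, 38.9 to 41.1% with ATRA and 36.3 to 38.3% under DAC + ATRA, so that DAC and DAC + ATRA lay below untreated cells without overlap. The part of these shifts in the results below was not tested.

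Values were tested with limma on log2(normalized read-count + 1), for single protein-coding transcripts and for the sum over all rows of a gene, and a gene or transcript was called at an adjusted p under 0.01. Summed values passed the filter on low counts for 7 of the 9 genes. RUNX3 and MYC did not pass it. In the comparison of DAC with untreated cells, 3 of the 7 genes were called, and 40.6% of all 13528 genes tested were called. With ATRA 2 of 7 were called against 9.61% of all genes, and with DAC + ATRA 2 of 7 against 48.5%. In the comparison of DAC + ATRA with DAC, 2 of 7 were called (12.3% of all genes), in that with ATRA 2 of 7 (37.1%), and in the DAC × ATRA interaction, which is 0 where the log2 effects of the single agents add up, 1 of 7 (2.46%). DAC and DAC + ATRA altered so many genes that a call by itself sets no member apart. Of the genes called with DAC, 69.5% were higher under the deposited scaling, 59.0% with TMM and 58.5% with scaling by library size. Of those called with ATRA, 69.5% were higher under the deposited scaling and 56.4% with scaling by library size. The median log2 fold change over all genes with DAC was 0.12 under the deposited scaling and -0.01 with scaling by library size, and with DAC + ATRA it was 0.11 and -0.04.

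**Figure D1:**
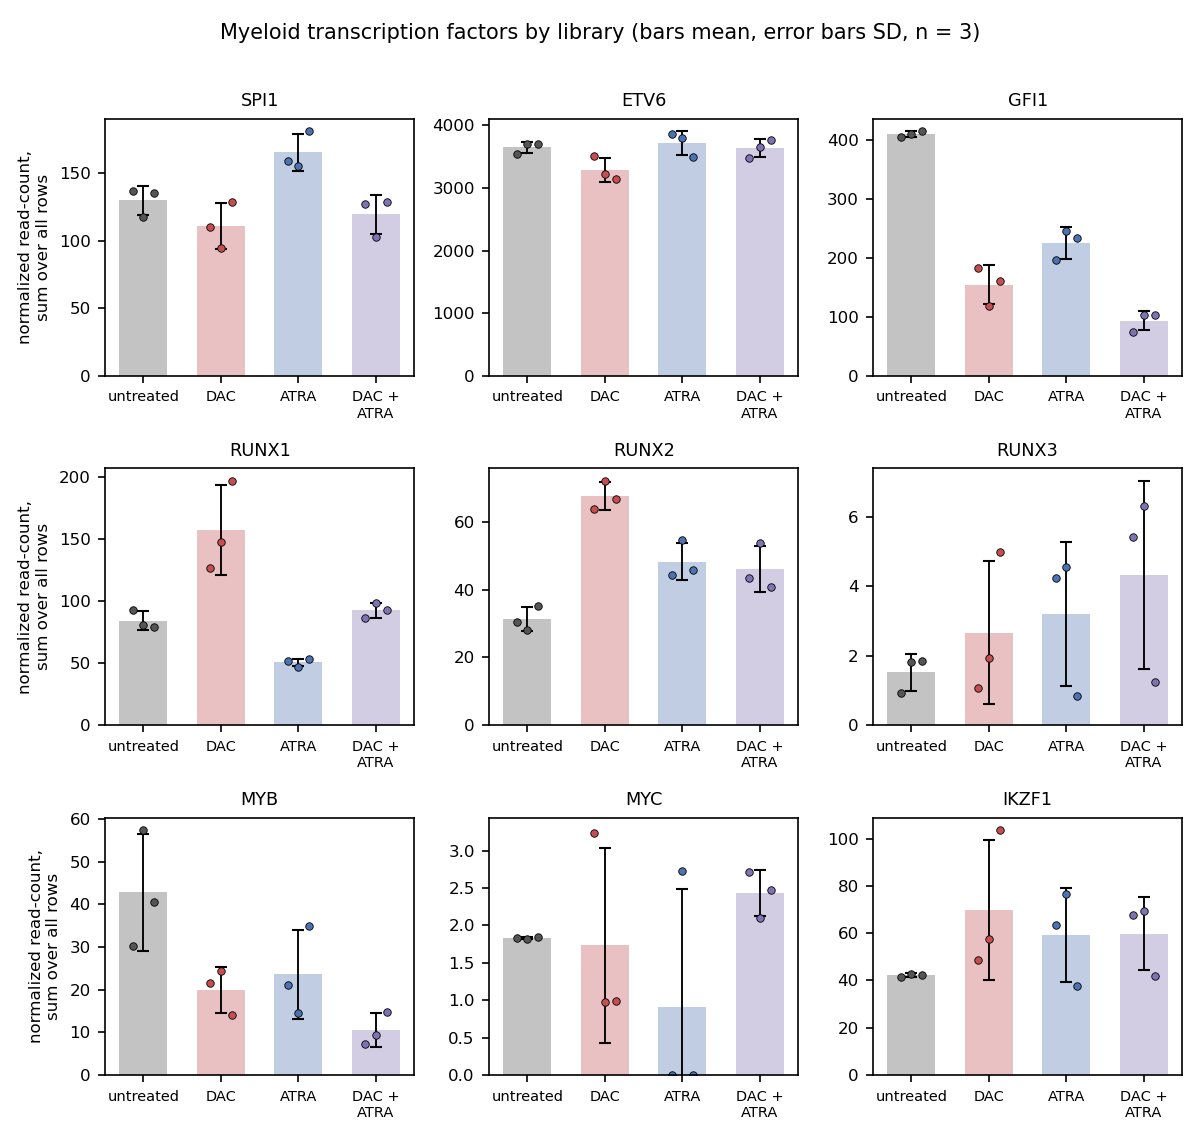
Normalized read-count, summed over all rows of a gene (vertical axis, linear from 0), in each of the 3 libraries of untreated, DAC, ATRA and DAC + ATRA cells, for the 9 genes. Bars are means, error bars SD and points libraries. GFI1 lay at 404 to 415 in untreated cells and at 75.04 to 103 with DAC + ATRA, while ETV6 stayed between 3146 and 3859 in all 12 libraries.

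GFI1 (ENSG00000162676, chr1, minus strand) had rows with separate 5′ ends that were counted apart. The promoter windows of its 3 RefSeq starts are printed because a counted row begins at or near each of them. Each window runs from 250 bases before to 50 bases after the start in GRCh38.p14, 5′ to 3′ on the gene's strand, with every CG, the dinucleotide at which DNA methyltransferases can add a methyl group, in capitals.

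GFI1 chr1:92486876-92487175 (row ENST00000294702): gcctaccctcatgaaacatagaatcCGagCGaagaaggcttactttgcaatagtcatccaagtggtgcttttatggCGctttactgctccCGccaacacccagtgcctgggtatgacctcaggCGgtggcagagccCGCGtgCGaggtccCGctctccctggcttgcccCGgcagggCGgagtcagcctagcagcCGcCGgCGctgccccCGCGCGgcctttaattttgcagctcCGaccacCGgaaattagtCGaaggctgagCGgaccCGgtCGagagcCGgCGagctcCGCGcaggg

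GFI1 chr1:92486050-92486349 (row ENST00000427103): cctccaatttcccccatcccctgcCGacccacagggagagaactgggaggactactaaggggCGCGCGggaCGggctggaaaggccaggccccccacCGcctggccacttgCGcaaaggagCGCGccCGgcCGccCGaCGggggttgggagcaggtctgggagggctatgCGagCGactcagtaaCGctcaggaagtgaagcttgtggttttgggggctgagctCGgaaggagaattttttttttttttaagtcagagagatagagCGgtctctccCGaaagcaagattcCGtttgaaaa

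GFI1 chr1:92483765-92484064 (row ENST00000370332): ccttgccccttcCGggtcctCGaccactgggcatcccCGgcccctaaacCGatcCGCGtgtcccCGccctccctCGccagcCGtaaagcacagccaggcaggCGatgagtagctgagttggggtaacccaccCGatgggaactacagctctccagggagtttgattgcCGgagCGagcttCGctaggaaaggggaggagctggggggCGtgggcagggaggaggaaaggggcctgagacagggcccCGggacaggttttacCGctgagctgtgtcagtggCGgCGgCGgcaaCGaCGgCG

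These windows held 27, 20 and 23 CpGs, and 71.8%, 58.8% and 64.2% of the 35116 promoter windows in the same table had fewer. Each of the 3 windows held a single AATC, the core of the motif GFI1 itself binds, counted on both strands, as 69.0% of all windows held at least a single match. AGGTCA, a core motif of the retinoic acid receptors, was matched in the window of ENST00000294702 and in 13.8% of all windows. The letters describe the windows, and methylation was not measured here.

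GFI1 fell with every treatment, and its mean was lowest with DAC + ATRA. Its summed normalized read-counts were 404, 409 and 415 in untreated cells, 183, 118 and 161 with DAC, 195, 246 and 234 with ATRA, and 75.04, 103 and 103 under DAC + ATRA. The 4 groups did not overlap, in the order untreated, ATRA, DAC and DAC + ATRA, and DAC was not tested against ATRA. The log2 fold change against untreated cells was -1.43 ± 0.16 (SE) with DAC (limma, adjusted p = 8.88e-08), -0.87 ± 0.16 with ATRA (adjusted p = 0.000341) and -2.13 ± 0.16 under DAC + ATRA (adjusted p = 9.71e-11). The mean with DAC + ATRA, 93.6 ± 16.1 (SD, n = 3), was 4.37-fold below the untreated mean of 409 ± 5.15. In bulk RNA, fewer cells that express a gene and less RNA per cell cannot be told apart.

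DAC + ATRA also lay below each agent alone for GFI1. Against ATRA its log2 fold change was -1.26 ± 0.16 (adjusted p = 6.04e-07), and against DAC it was -0.70 ± 0.16 (adjusted p = 0.00234). The second of these calls was lost without library 4, 6 or 10, with adjusted p of 0.025, 0.0134 and 0.0281. The interaction term was 0.16 ± 0.22 (95% interval -0.30 to 0.63, adjusted p = 0.774), so that a departure from added log2 effects was not detected.

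The fall was seen in rows that begin at different 5′ ends. ENST00000483490, which holds 63.7% of the GFI1 reads, begins between these starts and rests on 237 exonic bases at its 5′ end (chr1:92484446-92484682), which none of the windows covers. Its values were 243, 260 and 264 in untreated cells, 115, 79.9 and 99.6 with DAC, 131, 145 and 158 with ATRA, and 48.8, 78.9 and 61.8 under DAC + ATRA. The untreated libraries lay above all others for this row. ENST00000370332, resting on 220 bases (chr1:92483735-92483954), had 143, 127 and 129 in untreated cells and 24.4, 15.8 and 30.9 with DAC + ATRA, again without overlap. Among protein-coding transcripts, these 2 rows were the member rows called with DAC, where 39.3% of all 9016 were called, and with ATRA, where 9.14% were called. With ATRA neither was called without library 2, 3 or 7, and 1 was called without library 1, 9 or 10. With DAC + ATRA 4 member rows were called, ENST00000483490, ENST00000370332 and ENST00000427103 of GFI1 and ENST00000527615 of MYB, where 46.8% of all rows were called. ENST00000427103 had 11.03 to 16.4 in untreated cells and 0.904 to 4.94 with DAC + ATRA, a log2 fold change of -1.94 ± 0.50 (adjusted p = 0.00229). ENST00000294702, whose window is the CpG-richest of the 3, had 70 reads on 1919 bases of its own, of which 1719 lie at its 3′ end, and was too low to be tested. It had 5.46 to 7.35 in untreated cells, 1.95 to 9.73 with DAC, 2.497 to 8.45 with ATRA and 0.904 to 4.94 under DAC + ATRA. DAC and ATRA overlapped untreated cells, and DAC + ATRA lay below them. In limma's diffSplice over protein-coding rows, which among the 9 genes tested the rows ENST00000483490, ENST00000370332 and ENST00000427103 of GFI1 against each other, 0 of 18 tests over 6 comparisons passed an adjusted p of 0.01 (1 at an unadjusted p under 0.05).

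**Figure D2:**
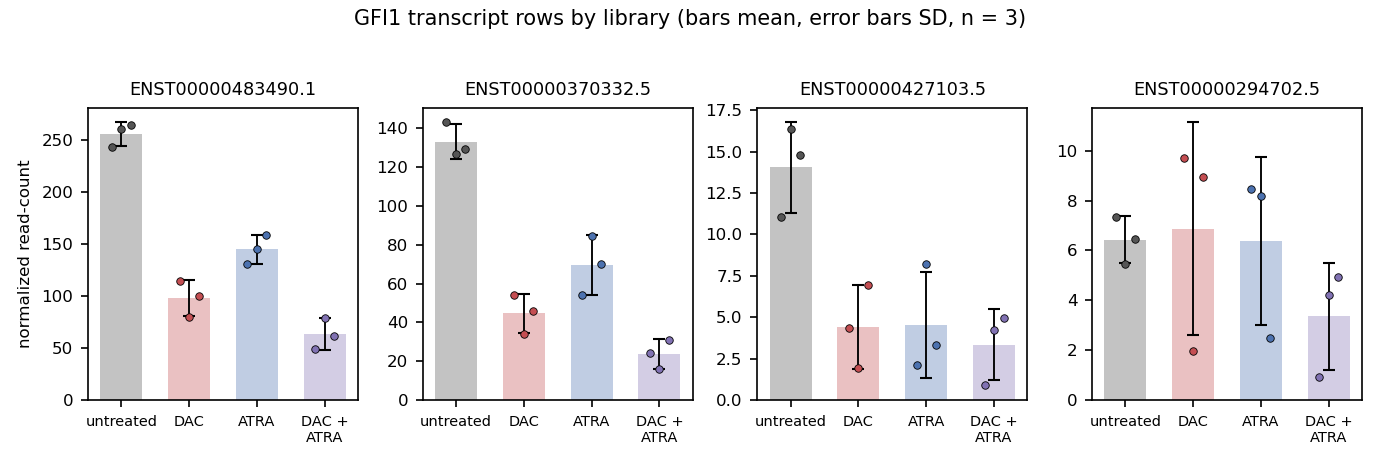
Normalized read-count (vertical axis, linear from 0) of the 4 GFI1 rows in the 3 libraries of each group, with bars for means, error bars for SD and points for libraries. In all 4 rows the 3 untreated libraries lie above the 3 libraries with DAC + ATRA, though ENST00000294702 had few reads and was not tested.

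MYB (ENSG00000118513, chr6, plus strand), which drives proliferation of progenitors, fell with DAC + ATRA. Its summed values were 30.3, 57.3 and 40.6 in untreated cells, 21.6, 24.4 and 13.9 with DAC, 21.1, 14.6 and 35.0 with ATRA, and 7.23, 9.47 and 14.8 under DAC + ATRA. DAC and DAC + ATRA lay below all untreated libraries, while the ATRA libraries overlapped them. Against untreated cells, DAC + ATRA gave a log2 fold change of -1.93 ± 0.33 (limma, adjusted p = 2.96e-05), a 4.07-fold difference of the means. With DAC it was -1.05 ± 0.33 (adjusted p = 0.0108) and with ATRA -0.87 ± 0.33 (adjusted p = 0.0827). The DAC value passed the threshold with DESeq2 (adjusted p = 0.00529) and with edgeR and TMM (adjusted p = 0.0019). In limma on the row ENST00000527615 alone it was smaller, -0.76 (adjusted p = 0.0802 among protein-coding transcripts). Summed over protein-coding rows without library 6 it was -0.53 (limma, adjusted p = 0.213). Against ATRA, DAC + ATRA gave -1.06 ± 0.33 (adjusted p = 0.011), and against DAC -0.88 ± 0.33 (adjusted p = 0.0671).

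MYB had 42 rows, of which 8 had reads, 306 reads in all, so each library rests on few of them. The leading row, ENST00000527615, rests on 391 bases (chr6:135203325-135203715) that other MYB rows do not share. These bases lie within the span of longer rows such as ENST00000341911 but in none of their exons. ENST00000341911 had 0 reads and no base of its own, so it was not followed by these counts. It had 11.03, 25.5 and 24.9 in untreated cells and 4.52, 6.32 and 6.18 with DAC + ATRA, a log2 fold change of -1.61 ± 0.35 (adjusted p = 0.000587). ENST00000525002, a row annotated for nonsense-mediated decay, had 8.27, 17.3 and 8.31 in untreated cells and 0, 1.05 and 4.94 with DAC + ATRA. Both rows were lower in all 3 libraries with DAC + ATRA than in any untreated library.

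**Figure D3:**
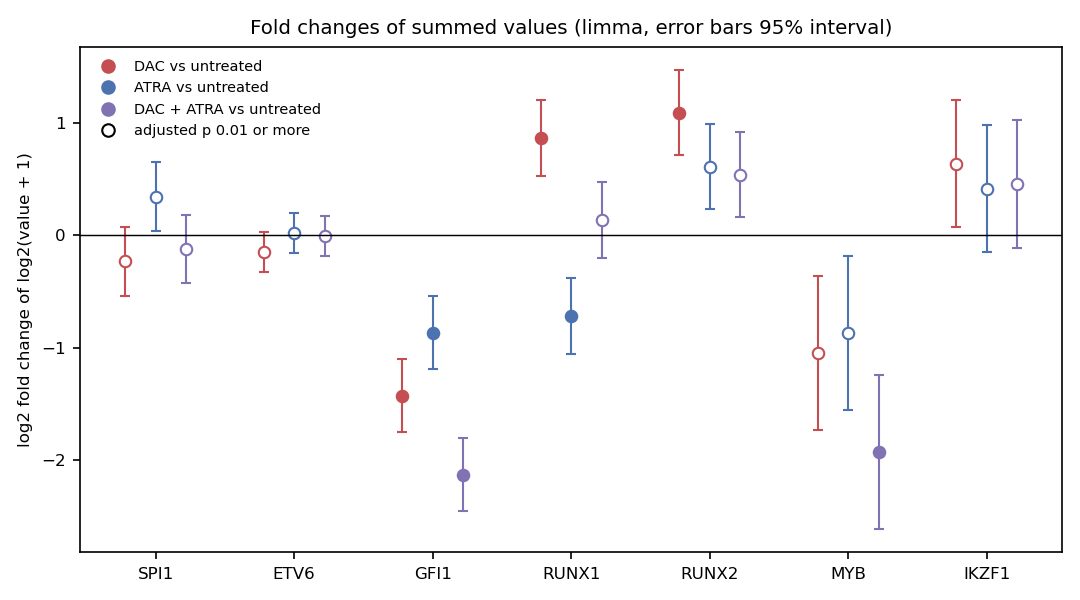
Log2 fold change of log2(normalized read-count + 1) against untreated cells (vertical axis) for the 7 genes tested, with DAC, ATRA and DAC + ATRA. Error bars are 95% intervals and filled points have an adjusted p under 0.01. GFI1 is filled in all 3 treatments, RUNX1 in opposite directions with DAC and ATRA, RUNX2 with DAC and MYB with DAC + ATRA.

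RUNX1 (ENSG00000159216, chr21, minus strand), required for blood stem cell formation and a frequent target of leukemia mutations, moved in opposite directions with the single agents. The libraries had summed values of 92.8, 81.0 and 79.4 in untreated cells, 126, 148 and 197 with DAC, 51.7, 47.3 and 53.3 with ATRA, and 86.8, 99.0 and 92.7 under DAC + ATRA. DAC lay above and ATRA below all untreated libraries, and DAC + ATRA overlapped them. The log2 fold change was 0.87 ± 0.16 with DAC (limma, adjusted p = 0.000114), -0.72 ± 0.16 with ATRA (adjusted p = 0.00314) and 0.14 ± 0.16 under DAC + ATRA (95% interval -0.20 to 0.48, adjusted p = 0.489). DAC + ATRA was below DAC by -0.73 ± 0.16 (adjusted p = 0.00225) and above ATRA by 0.86 ± 0.16 (adjusted p = 0.000143). Library 6, with DAC, had the highest value, and without it the change with DAC was 0.69 (adjusted p = 0.00185), and that of DAC + ATRA against DAC was -0.56 and no longer called (adjusted p = 0.0268). The latter was also lost without library 10 or 12 (adjusted p = 0.0158 and 0.0102). The fall with ATRA was lost without library 1, 2 or 8 (adjusted p = 0.0214, 0.0103 and 0.0163).

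Most of the RUNX1 signal was intronic. The retained-intron row ENST00000469087, which rests on 1449 intronic bases (chr21:34832961-34834409), held 74.8% of the reads, and protein-coding rows held 18.6%. In a fit over all 19373 transcript rows that passed the filter, this row rose by 0.80 ± 0.19 with DAC (adjusted p = 0.00135) and fell with ATRA, by -0.77 ± 0.19 (adjusted p = 0.00696). Of all rows, 33.5% were called with DAC, 6.97% with ATRA and 41.6% under DAC + ATRA. The leading protein-coding row, ENST00000399237, had 9.19, 7.28 and 13.9 in untreated cells, 16.2, 15.6 and 45.8 with DAC, 8.45, 14.6 and 4.99 with ATRA, and 9.04, 17.9 and 12.4 under DAC + ATRA. All 3 of its DAC libraries were above the untreated ones, with a log2 fold change of 1.14 ± 0.42 (adjusted p = 0.0303 among protein-coding transcripts), and ATRA overlapped untreated cells. Summed over protein-coding rows alone, RUNX1 gave 1.36 with DAC (adjusted p = 0.00844), but 0.89 without library 6 (adjusted p = 0.0789), so that this call rests on that library. On the same rows ATRA gave -0.24 (adjusted p = 0.768), and DAC + ATRA differed from DAC by -0.56 (adjusted p = 0.388) and from ATRA by 1.04 (adjusted p = 0.043), so that these calls of the sum over all rows were not made. Retained-intron rows took 4.42 to 4.86% of the values outside mitochondrial genes in untreated cells, 3.56 to 3.73% with DAC, 3.76 to 5.31% with ATRA and 3.65 to 4.11% under DAC + ATRA. The part of these shares in the RUNX1 values was not tested. ENST00000475045, which begins farthest upstream (chr21:36004667) and whose own bases lie in 6 exons, had at most 1.82 in untreated and 0.91 in ATRA libraries, 3.24 to 9.96 with DAC and 4.52 to 9.47 with DAC + ATRA, and was too low to be tested.

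RUNX2 (ENSG00000124813, chr6, plus strand), the relative best known from bone, has a distal and a proximal promoter. Both RefSeq windows are printed because the row with most of the reads begins in the proximal one, while the other row with reads begins downstream of the distal one. CG is again in capitals, from GRCh38.p14, 5′ to 3′.

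RUNX2 distal chr6:45328080-45328379: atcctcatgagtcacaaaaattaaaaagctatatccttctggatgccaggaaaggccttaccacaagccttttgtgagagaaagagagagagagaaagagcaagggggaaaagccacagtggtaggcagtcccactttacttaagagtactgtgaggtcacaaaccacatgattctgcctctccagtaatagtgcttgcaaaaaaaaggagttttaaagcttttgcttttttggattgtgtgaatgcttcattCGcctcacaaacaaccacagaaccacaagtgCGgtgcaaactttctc

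RUNX2 proximal chr6:45422025-45422324: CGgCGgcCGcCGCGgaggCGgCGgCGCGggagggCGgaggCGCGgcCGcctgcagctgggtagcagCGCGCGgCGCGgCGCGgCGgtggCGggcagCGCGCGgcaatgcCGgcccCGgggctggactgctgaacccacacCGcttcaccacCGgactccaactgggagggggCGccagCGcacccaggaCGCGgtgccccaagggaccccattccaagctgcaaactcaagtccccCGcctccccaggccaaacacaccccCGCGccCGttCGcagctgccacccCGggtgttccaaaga

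The distal window held 2 CpGs and the proximal one 39, which is more than in 91.3% of all windows. The distal window held 5 matches to TGTGGT or TGCGGT, the RUNX motif, on either strand, and the proximal one none, while 19.6% of all windows held at least a single match. Row ENST00000371438, with 165 bases of its own just after the distal start, had 0 reads in the 12 libraries, but ENST00000576263, which begins after that start (chr6:45328727), held 156 reads, on bases at its 3′ end, so that use of the distal side is not settled by these counts. Row ENST00000478660, annotated for nonsense-mediated decay, held 73.6% of the RUNX2 reads. Of its 653 own bases, 449 lie at the proximal start (chr6:45422036-45422484) and 204 far downstream (chr6:45513450-45513653), and how its reads divide between these stretches is not known from counts per row.

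RUNX2 rose with DAC. Its summed values were 30.3, 28.2 and 35.1 in untreated cells, 63.8, 72.1 and 66.7 with DAC, 44.4, 54.6 and 45.8 with ATRA, and 43.4, 53.7 and 40.8 under DAC + ATRA. All treated libraries lay above the untreated ones, DAC lay above the other treatments, and ATRA and DAC + ATRA overlapped. DAC gave a log2 fold change of 1.09 ± 0.18 (limma, adjusted p = 2.99e-05), ATRA of 0.61 ± 0.18 (adjusted p = 0.0248) and DAC + ATRA of 0.54 ± 0.18 (adjusted p = 0.0148). DAC + ATRA against DAC gave -0.55 ± 0.18 (adjusted p = 0.0364). The interaction was -1.17 ± 0.26 (adjusted p = 0.0082), which was past the threshold, but not with DESeq2 (adjusted p = 0.0199) or edgeR with TMM (adjusted p = 0.013). It stayed past the threshold without library 9 or 11 (adjusted p = 0.00688 and 0.00788) and was lost without any other single library (adjusted p = 0.0104 to 0.0316).

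The RUNX2 rows were also tested apart. ENST00000478660 had 21.1, 18.2 and 23.1 in untreated cells, 44.3, 52.6 and 56.8 with DAC, 29.6, 40.1 and 30.8 with ATRA, and 35.3, 45.3 and 29.7 under DAC + ATRA. No treated library overlapped the untreated ones, and in the fit over all rows the log2 fold change was 1.26 ± 0.22 with DAC (adjusted p = 5.31e-05) and 0.78 ± 0.22 with DAC + ATRA (adjusted p = 0.00525). The protein-coding row ENST00000576263, resting on 477 bases at the 3′ end, had 9.19, 10.01 and 12.01 in untreated cells, 19.5, 19.5 and 9.96 with DAC, 14.8, 14.6 and 15.0 with ATRA, and 8.14, 8.42 and 11.1 under DAC + ATRA. Its DAC and DAC + ATRA libraries overlapped the untreated ones, and on it alone the change with DAC was 0.55 (adjusted p = 0.149 among protein-coding transcripts) and that with DAC + ATRA was -0.16 (adjusted p = 0.681). The difference between the rows did not pass the threshold in limma's diffSplice over all rows, with DAC (adjusted p = 0.17) or with DAC + ATRA (adjusted p = 0.0565).

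**Figure D4:**
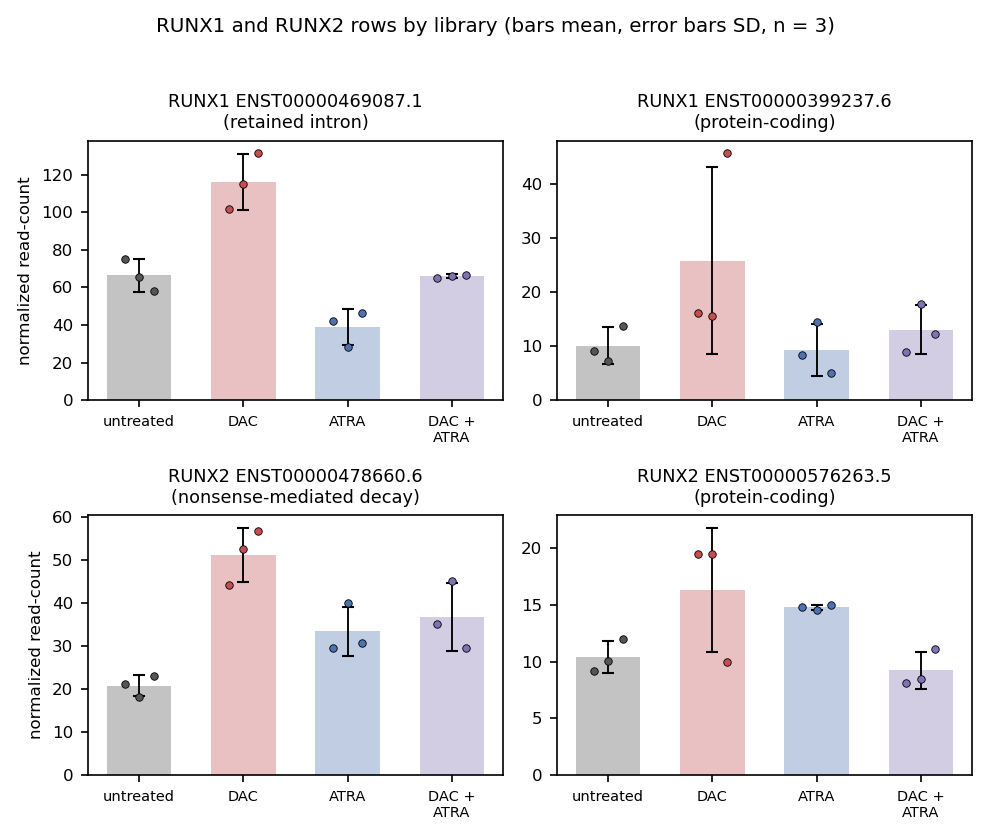
Normalized read-count (vertical axis, linear from 0) of the leading RUNX1 and RUNX2 row and of the leading protein-coding row of each gene, in the 3 libraries of each group. Bars are means, error bars SD and points libraries. For RUNX1 ENST00000469087 the DAC libraries lie above and the ATRA libraries below the untreated ones, and for RUNX2 ENST00000478660 all treated libraries lie above them.

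RUNX3 (ENSG00000020633, chr1, minus strand), a RUNX factor of lymphoid and dendritic cells, had 36 reads over 12 libraries and was not tested. Its summed values were 0.919 to 1.85 in untreated cells, 1.08 to 4.98 with DAC, 0.832 to 4.55 with ATRA and 1.24 to 6.32 under DAC + ATRA. The groups overlapped, and a difference was not detectable at this depth.

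SPI1 (ENSG00000066336, chr11, minus strand), the ETS factor that specifies monocytes and granulocytes, was not called in any comparison. The libraries had summed values of 137, 117 and 136 in untreated cells, 110, 94.5 and 128 with DAC, 159, 156 and 181 with ATRA, and 127, 103 and 129 under DAC + ATRA. ATRA lay above all other groups, which overlapped among themselves. The log2 fold change was -0.23 (95% interval -0.54 to 0.07, adjusted p = 0.189) with DAC, 0.35 (0.04 to 0.65, adjusted p = 0.127) with ATRA and -0.12 (-0.43 to 0.18, adjusted p = 0.492) under DAC + ATRA. DAC + ATRA against ATRA gave -0.47 ± 0.15 (adjusted p = 0.0114), which passed the threshold with DESeq2 (adjusted p = 0.00745) and with edgeR and TMM (adjusted p = 0.00467). The reads lay almost entirely in ENST00000533968 (97.7%), on 663 bases at its 3′ end (chr11:47358181-47358843), and the other SPI1 rows with reads held 30 and 7 of them. These 663 bases lie within the span of the other SPI1 rows but in none of their exons, so the summed values say little of those rows. ENST00000378538, with 30 reads, had 1.82 to 5.51 in untreated cells and 0 to 1.81 with DAC + ATRA, and was too low to be tested.

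ETV6 (ENSG00000139083, chr12, plus strand), an ETS repressor needed for marrow hematopoiesis, had 44033 of the 51296 reads of the 9 genes, and 5472 bases of its row ENST00000396373 are not shared. Its summed values were 3548, 3694 and 3709 in untreated cells, 3502, 3220 and 3146 with DAC, 3859, 3795 and 3496 with ATRA, and 3486, 3652 and 3765 under DAC + ATRA. The DAC libraries lay just below the untreated ones and the other groups overlapped. The log2 fold change was -0.15 with DAC (95% interval -0.33 to 0.03, adjusted p = 0.145), 0.02 with ATRA (-0.15 to 0.20) and -0.01 under DAC + ATRA (-0.18 to 0.17). The change with DAC depended on the scaling: it was -0.26 with edgeR and TMM (adjusted p = 0.00502) and -0.28 with scaling by library size (adjusted p = 0.00077). Of the 7 genes tested, ETV6 had the narrowest intervals.

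IKZF1 (ENSG00000185811, chr7, plus strand), which encodes the zinc finger factor Ikaros of lymphoid and myeloid progenitors, was not called. Its summed values were 41.4, 42.8 and 42.5 in untreated cells, 48.6, 57.5 and 104 with DAC, 63.4, 76.5 and 37.5 with ATRA, and 67.8, 69.5 and 42.0 under DAC + ATRA. DAC lay above the untreated libraries and the other treatments overlapped them. The log2 fold change with DAC was 0.64 ± 0.27 (adjusted p = 0.0549) and 0.32 (adjusted p = 0.341) without library 6. With ATRA it was 0.42 (95% interval -0.15 to 0.98) and with DAC + ATRA 0.46 (-0.11 to 1.02). The retained-intron row ENST00000484847 held 48.5% of the reads and ran from 9.99 in library 9 (ATRA), which had the highest retained-intron share (5.31%), to 61.8 in library 6 (DAC). The leading protein-coding row, ENST00000413698, had 11.9 to 19.4 in untreated cells, 14.6 to 31.9 with DAC, 19.1 to 28.5 with ATRA and 17.9 to 22.2 under DAC + ATRA, and was not called in any comparison.

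MYC (ENSG00000136997), the growth factor-responsive activator of ribosome and metabolism genes, could not be followed in this matrix. Of its 7 rows only ENST00000259523 had reads, 21 over 12 libraries. The values were 1.82 to 1.85 in untreated cells, 0.974 to 3.24 with DAC, 0 to 2.73 with ATRA and 2.11 to 2.71 under DAC + ATRA, all within 3 reads or fewer per library. A difference of MYC was not detectable at this depth.

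The partners and relatives of these factors were described from lists of symbols, each summed over all rows, with the genes called against untreated cells. Among all genes, 28.2% were higher and 12.4% lower with DAC, 6.68% and 2.93% with ATRA, and 31.1% and 17.4% under DAC + ATRA. A gene near 0 in untreated cells, such as SPIB, RCOR2, ID1 or CSF1R, passed the filter on low values only through treated libraries, so that its test, and its part in a count or median, depends on that filter. In the ETS family, beside SPI1 and ETV6, 13 of 16 were tested, of which 7 rose with DAC, 1 with ATRA and 6 under DAC + ATRA, and none fell. Of these 13, 4 (ERG, FEV, ETV7 and SPIB) would not have passed the filter without the libraries of 1 group, and they make up 3 of the rises with DAC and 4 of those under DAC + ATRA. The highest with DAC + ATRA was SPIB, the PU.1 relative of B and dendritic cells, at 11.6 to 13.6 against 0 to 1.84 in untreated cells and 0 in all DAC and ATRA libraries. The lowest was ELF1, at 28.8 ± 1.41 (SD, n = 3) against 37.6 ± 4.23 (log2 fold change -0.37 ± 0.20, adjusted p = 0.108), though it rose with DAC to 72.4 ± 12.4 (0.92 ± 0.20, adjusted p = 0.00045).

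Of the RUNX partners and corepressors, 7 of 10 were tested, and 3 rose with DAC, 1 with ATRA and 3 under DAC + ATRA, while 1 fell with DAC + ATRA. TLE3, a Groucho-type corepressor, rose most, from 39.1 ± 16.7 to 133 ± 5.22 with DAC + ATRA (1.81 ± 0.22, adjusted p = 3.6e-07), and its relative TLE1 fell from 40.4 ± 0.30 to 22.2 ± 1.99 (-0.84 ± 0.22, adjusted p = 0.00242). CBFB, the shared partner of the RUNX proteins, did not pass the filter, with 3.64 to 7.35 in untreated cells and 9.94 to 13.6 with DAC + ATRA. In the GFI1 and LSD1 complex, 7 of 10 were tested, and 2 rose and 2 fell with DAC, and 3 rose and 2 fell with DAC + ATRA, while with ATRA the lowest adjusted p was 0.0364, for KDM1A. RCOR2, a CoREST protein of neural and stem cells, rose from 1.84 to 4.62 in untreated cells to 204 to 281 with DAC and 104 to 142 with DAC + ATRA (4.90 ± 0.35, adjusted p = 6.01e-11). KDM1A, the demethylase LSD1 that GFI1 recruits, fell from 150 ± 11.8 to 90.9 ± 9.78 (-0.72 ± 0.14, adjusted p = 0.000171). KDM1A also fell with DAC, to 92.8 ± 7.01 (-0.69 ± 0.14, adjusted p = 0.000347).

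Of the genes known to be repressed by GFI1, 6 of 8 were tested, and 2 rose and 1 fell with DAC, 1 rose and 1 fell with ATRA, and 3 rose and 1 fell under DAC + ATRA. CDKN1A, a cell cycle inhibitor that is also in the list of MYC targets, is among the rises under DAC + ATRA and reached 10 in no untreated or DAC library, so that it passed the filter only through the other libraries. The median of the list under DAC + ATRA was 1.07 with it and 0.07 without it. ID1, an inhibitor of basic helix-loop-helix factors, rose from 0.91 to 1.84 in untreated cells to 68.7 to 96.4 with DAC + ATRA (5.25 ± 0.37, adjusted p = 4.42e-11). MEIS1, the HOX cofactor of leukemia cells, fell from 1477 ± 251 to 421 ± 21.1 (-1.80 ± 0.14, adjusted p = 3.48e-10). CSF1, the macrophage growth factor, differed between the agents: it rose with DAC from 8.87 ± 2.80 to 108 ± 15.1 (3.501 ± 0.33, adjusted p = 7.04e-09) and fell with ATRA to 2.73 ± 2.39 (-1.55 ± 0.33, adjusted p = 0.0017). ELANE, which encodes neutrophil elastase, was too low to be tested.

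Of the genes known as targets of PU.1, 8 of 12 were tested, and 6 rose and 1 fell with DAC, 4 rose with ATRA, and 5 rose under DAC + ATRA. The 8 had a median log2 fold change of 0.94 under DAC, 0.57 under ATRA and 1.53 under DAC + ATRA, where the medians of all genes were 0.12, 0 and 0.11. The list was chosen with earlier results of these data known, so these medians are no test of it. CSF1R, the receptor of CSF1, passed the filter only through DAC + ATRA and is among the risen genes in all 3 comparisons, and without it the medians were 0.64, 0.42 and 1.497. CYBB, the catalytic subunit of the phagocyte oxidase, was highest, at 224 ± 23.1 in untreated cells, 2994 ± 440 with DAC, 655 ± 34.2 with ATRA and 4532 ± 45.0 under DAC + ATRA (4.34 ± 0.11, adjusted p = 6.2e-19). ITGAM, the integrin chain CD11b, also rose with DAC + ATRA, by 3.76 ± 0.10 (adjusted p = 9.12e-19). CSF3R, the receptor of G-CSF, was the lowest, at 630 ± 69.5 in untreated cells and 439 ± 32.3 with DAC + ATRA (-0.52 ± 0.21, adjusted p = 0.0407), and it fell with DAC by -1.30 ± 0.21 (adjusted p = 5.07e-05). SPI1 itself was not called in the same libraries, but its values rest almost entirely on ENST00000533968, and PU.1 protein was not measured here.

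In the MYC network, 10 of 12 were tested, and 6 rose with DAC, 2 rose and 1 fell with ATRA, and 3 rose and 2 fell under DAC + ATRA. MXD4, a MAX partner that opposes MYC, rose from 714 ± 33.1 to 3477 ± 432 with DAC and 3262 ± 253 with DAC + ATRA (2.19 ± 0.11, adjusted p = 8.49e-14). MXI1, of the same group of repressors, was the lowest with DAC + ATRA (-1.49 ± 0.39, adjusted p = 0.00249). MYCL, a MYC paralog, rose with DAC by 1.76 ± 0.18 (adjusted p = 1.93e-08) and fell with ATRA by -0.99 ± 0.18 (adjusted p = 0.000264). Of the genes that MYC is known to regulate, 13 of 15 were tested, and 2 rose and 3 fell with DAC, 2 fell with ATRA, and 3 rose and 5 fell under DAC + ATRA. The rises under DAC + ATRA again include CDKN1A, and the median there was -0.48 with it and -0.54 without it. CAD, an enzyme of pyrimidine synthesis that MYC activates, fell most, from 55.0 ± 7.69 to 16.2 ± 1.02 with DAC + ATRA (-1.70 ± 0.25, adjusted p = 4.39e-06). CDKN2B, a cell cycle inhibitor that MYC represses, rose most, from 17.8 ± 4.80 to 192 ± 19.0 (3.39 ± 0.24, adjusted p = 4.85e-11).

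Among the relatives and coactivators of MYB, 5 of 7 were tested, and 2 rose with DAC and 2 with DAC + ATRA, while with ATRA the lowest adjusted p was 0.0618, for EP300. EP300, the acetyltransferase that MYB recruits, rose most (1.08 ± 0.11 with DAC + ATRA, adjusted p = 1.61e-08), and MYBL1 was the lowest (-0.56 ± 0.18, adjusted p = 0.0111). In the Ikaros family and its chromatin partners, 3 of 7 were tested, and 1 fell with DAC and 1 rose and 2 fell with DAC + ATRA, while with ATRA the lowest adjusted p was 0.324, for MTA1. MTA2, a subunit of the NuRD complex, was the highest (0.97 ± 0.28, adjusted p = 0.00974), and the Ikaros relative IKZF5 was the lowest (-1.23 ± 0.37, adjusted p = 0.00677). Of the noncoding symbols listed, PVT1 gave 0.05 ± 0.22 (adjusted p = 0.865) with DAC + ATRA, and MIR155HG, the host of a microRNA induced in activated myeloid cells, gave -0.79 ± 0.18 (adjusted p = 0.000793). RUNX1-IT1 and LINC00160 were not tested.

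The medians of the lists went in both directions. Under DAC + ATRA they were 0.25 for the ETS family, 0.15 for the RUNX partners and corepressors, -0.04 for the GFI1 and LSD1 complex, 0.01 for the MYB family and coactivators, 0.20 for the MYC network and -0.82 for the Ikaros family, beside those given above for the target genes. For these 6 lists and the MYC and GFI1 target genes, the medians ran from -0.53 (Ikaros family) to 0.53 (RUNX partners) with DAC and from -0.32 (MYC target genes) to 0.13 (ETS family) with ATRA.

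**Figure D5:**
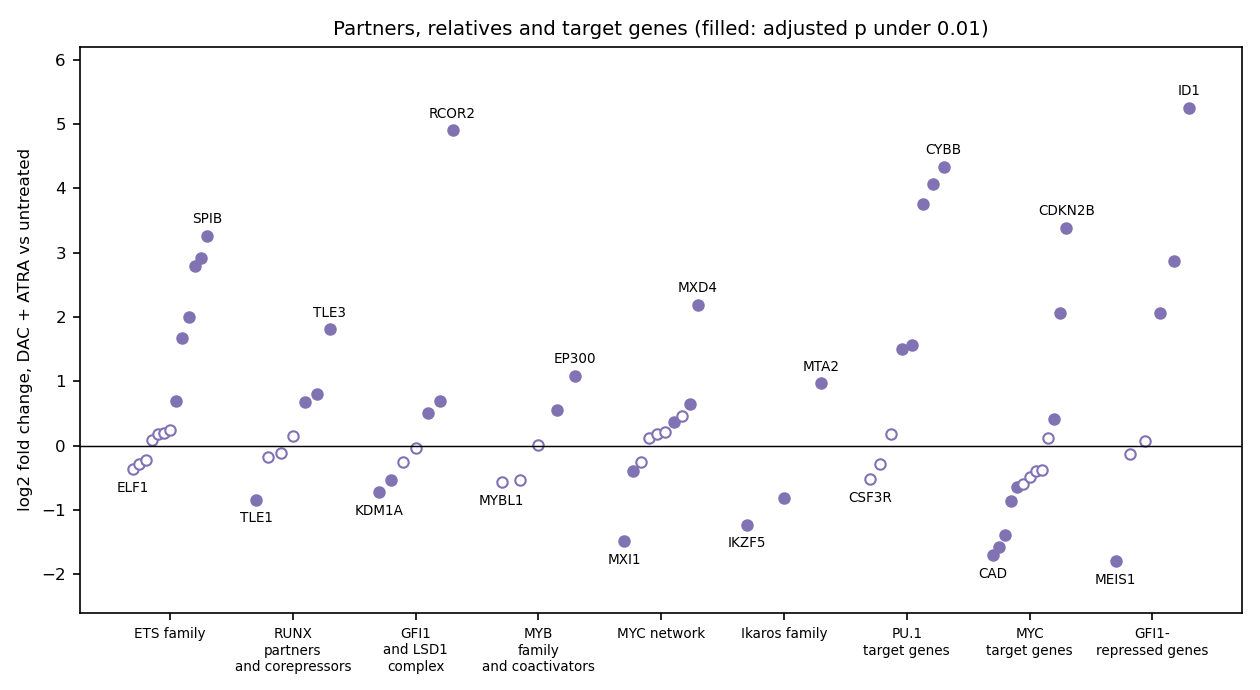
Log2 fold change of summed values with DAC + ATRA against untreated cells (vertical axis) for each tested gene of 9 lists of partners, relatives and target genes. Filled points have an adjusted p under 0.01, and the highest and lowest gene of each list is named. ID1 at 5.25, RCOR2 at 4.90 and CYBB at 4.34 lie highest, and MEIS1 at -1.80 and CAD at -1.70 lie lowest.

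The genes whose pattern over the 12 libraries lay nearest to each member were found by the root mean square difference of log2(value + 1), each centred on its own mean, among the 5309 or 5310 other genes with a mean of at least 100. For GFI1 they were SNHG19, a snoRNA host gene, at 0.22 and RP11-800A3.4 at 0.22, where the spread of GFI1 itself was 0.80. For RUNX1 they were SERINC5 and CHST12, both at 0.19, where the spread of RUNX1 was 0.58. CHST12 averaged 160 in untreated cells, 316 with DAC, 98.3 with ATRA and 222 under DAC + ATRA. For RUNX2 they were FAM212B and RP11-996F15.2, both at 0.17, for MYB AC091814.2 at 0.36 and CCDC144A at 0.37, and for SPI1 BRI3 and SH3BP5-AS1, both at 0.14. For ETV6 they were DOPEY2 at 0.05 and PIKFYVE at 0.06, where ETV6 itself spread by only 0.09. For IKZF1 they were CSK at 0.18 and TRAK1 at 0.20. All points share the 12 libraries and their scaling, and the measure carries no test.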

How the data were processed

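RNA-seq was analysed from 12 libraries of U937 cells, 3 per group, in a single matrix of transcript rows. Per the submitters' processing notes, the authors used FastQC, STAR, HTSeq and DESeq2 with hg38, and the deposited values are a normalized signal, that is reads divided by a size factor of the library. The counting mode, strand setting and annotation release are not given in the sources used here. Whole reads were recovered from these values within a tolerance of 0.1, and gave the depths. The columns carry a group and a running number, and no replicate number.

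The design had assumed counts. Because the values were normalized, limma 3.58.1 (trended and robust empirical Bayes) was fitted to log2(value + 1) over all 12 libraries, for features with at least 10 in 3 libraries, with Benjamini-Hochberg adjusted p under 0.01. A fold change on this scale understates the change of low genes. Positions and biotypes of transcripts came from GENCODE 44 (hg38), and promoters and starts from RefSeq GRCh38.p14, where 7 of the 9 genes had a window. Of the 37 rows with reads, 36 were found in GENCODE 44, 7 of them under another version. edgeR 4.0.16, DESeq2 1.42.0, other scalings, filters and pseudocounts, and leaving out each library, were alternatives. edgeR with TMM, and sums over protein-coding rows, each with library 6 left out, were chosen after seeing the data. On simulated data with 200 of 13528 genes changed, limma found 59% of the 2-fold and 94% of the 4-fold changes between DAC and untreated cells. Same-group libraries differed by more than sampling noise (chi-square per degree of freedom 2.35 to 10.7), so none was counted as a duplicate.

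The genes and lists were chosen with earlier results of these data known. Named list genes are the highest and the lowest with DAC + ATRA. CSF1, ITGAM, CSF1R, LYZ, MPO, CD33, CD4, COL1A1, DCN, ERG, FEV, ETV7, CDKN1A, KRT8, MYCL, CBFB and ELANE were named after their values were seen. The analysis used R 4.3.3 and Python 3.11.15.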

Additional observations from a re-analysis of the deposited data

Results flagged for a closer look

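The DAC × ATRA interaction of RUNX2 was -1.17 ± 0.26 (SE, limma, adjusted p = 0.0082). This difference between the effects of ATRA with and without DAC did not pass with DESeq2 (adjusted p = 0.0199) or edgeR with TMM (adjusted p = 0.013), and passed without library 9 or 11 but not without any other single library (adjusted p = 0.0104 to 0.0316). The means were 31.2 ± 3.52 (SD, n = 3) in untreated cells, 67.5 ± 4.21 with DAC, 48.2 ± 5.56 with ATRA and 46.0 ± 6.82 under DAC + ATRA. On the protein-coding row alone it was -1.19 (adjusted p = 0.151).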

How the results depend on the processing

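No paired analysis was possible because the columns carry no replicate numbers, so the planned fits with a replicate block were not run. Of 953 values of single genes under alternatives other than protein-coding rows without library 6, 852 kept direction and side of the threshold, 31 lost the call and 31 gained it, and 39 changed sign, 0 of them for a called value (largest size 0.31). Against a single main count, the member transcripts called between DAC + ATRA and DAC were 0 with DESeq2, TMM, edgeR with DESeq2 size factors, a pseudocount of 0.1, only the groups compared, or TMM without library 6, and 2 at a threshold of 0.05 or over all rows. Of all 9016 transcripts, 1022 were called there in the main fit, 1288 with DESeq2, 1323 with TMM and 1196 with edgeR and DESeq2 size factors. With DAC 4 transcripts, in place of 2, were called with TMM, library size, a threshold of 0.05, all rows, or TMM without library 6. With DAC + ATRA 2 in place of 4 had at least 10 in every library and were called, and with ATRA 1 in place of 2 at a pseudocount of 0.1. The gene called for the interaction was lost (0) with DESeq2, TMM, library size, no filter, protein-coding rows, or TMM without library 6. Genes called with DAC were 5 in place of 3 with TMM or library size. Those between DAC + ATRA and ATRA were 4 in place of 2 with TMM, edgeR with DESeq2 size factors, library size, a threshold of 0.05, or TMM without library 6, and 1 on protein-coding rows. With DAC + ATRA 1 in place of 2 was called at 10 or more in every library. On protein-coding rows 1 in place of 2 was called with ATRA and between DAC + ATRA and DAC, and 0 in the latter with TMM without library 6. On protein-coding rows without library 6, the genes called were 1 with DAC, 1 with ATRA, 0 between DAC + ATRA and DAC, 1 between DAC + ATRA and ATRA and 0 for the interaction. The cause was not tested.

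Leaving out each library gave 1 to 2 genes called with ATRA, 3 to 4 with DAC, 2 with DAC + ATRA, 0 to 1 for the interaction, 2 to 4 between DAC + ATRA and ATRA, and 0 to 2 between DAC + ATRA and DAC. For transcripts these counts were 0 to 2, 2 to 3, 3 to 4, 0, 2 and 0 to 2. Of all 9016 transcripts, the main fit called 222 for the interaction, 3136 between DAC + ATRA and ATRA and 1022 between DAC + ATRA and DAC. The genes between DAC + ATRA and DAC were 0 without library 6 or 10 and 1 without 4 or 12, and those with ATRA 1 without 1, 2 or 8. The transcripts with ATRA were 0 without 2, 3 or 7 and 1 without 1, 9 or 10. Signs of uncalled values changed with scaling by library size for ETV6 with ATRA (-0.0444) and RUNX1 with DAC + ATRA (-0.00999), and on protein-coding rows, with and without library 6, for RUNX2 with DAC + ATRA (-0.16). Leaving out each library moved ETV6 from -0.0326 to 0.0230 with DAC + ATRA and from -0.00285 to 0.0684 with ATRA, and the GFI1 interaction from -0.0165 to 0.313. Few reads limit RUNX3, MYC and MYB, and intervals cover the spread between these libraries only.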
